A study of Mus musculus with 48 samples.

Results

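Food restriction was examined in the ileum of sham-operated mice, as the difference between enteroendocrine cells from weight-matched animals (S_wm) and from animals fed ad libitum (S_al). The comparison was made up of the 10 ileum libraries whose condition labels were S_wm or S_al, 5 of each, out of 48 mouse libraries in the series. The remaining libraries came from the duodenum and colon of the same groups and from mice after vertical sleeve gastrectomy (VSG), of which 6 were ileum libraries.

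All 10 mice were lean males of the Neurod1-cre-eYFP strain, in which Cre expressed from the Neurod1 promoter turns on a yellow fluorescent protein in enteroendocrine cells and in any cell that has expressed Neurod1. They were about 20 weeks old at surgery, had a sham operation in which a suture was placed without constricting the stomach, and received liquid diet for 1 week and chow thereafter. All received an analgesic and the antibiotic Baytril after the operation. The S_al mice had free access to chow. The S_wm mice were given chow in 2 portions a day, in amounts that kept their body weight at that of the VSG mice, so that the amount of food and its timing differed together between the groups and cannot be told apart. At 6 weeks after surgery all animals were fasted overnight and given 3 g/kg glucose by gavage, and the bottom 15 cm of the small intestine, which the labels call ileum, was taken about 15 min later for sorting of fluorescent, CD45-negative cells. The clock time at which each mouse was killed is not given in the sources used here.

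Enteroendocrine cells are scattered hormone-secreting cells of the gut epithelium that sense nutrients through G-protein coupled receptors (GPCRs) and transporters. In the ileum they are known for glucagon-like peptide 1 (from Gcg), peptide YY (Pyy) and neurotensin (Nts). Like most cells they carry a circadian clock, in which CLOCK and BMAL1 (encoded by Arntl) drive the Per, Cry and Nr1d genes and the output regulators Dbp, Tef and Hlf, while NR1D1 and NR1D2 repress Arntl and Nfil3. Meal timing is a known time cue for clocks in the gut and liver. Fasting is known to switch on fatty acid oxidation genes through the nuclear receptor PPAR-alpha.

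The 10 libraries held between 4844350 and 7421731 counts, with 17420 to 20995 genes detected in each. The label of enteroendocrine cells was checked with 12 markers, which summed to 35026 to 46375 CPM (counts scaled for library size) in S_al and 41876 to 52324 CPM in S_wm libraries. Chga and Chgb gave most of this sum. Markers of the ileum and jejunum summed to 3501 to 11548 CPM, most of it from Nts, and colon markers to 43.2 to 102 CPM over the 10 libraries. Duodenum markers, which include Gip and Ghrl, summed to 795 to 7201 CPM in S_al and 2720 to 7204 CPM in S_wm libraries. They exceeded the ileum and jejunum sum in S_al mouse 24 (7201 against 5811 CPM) and S_wm mouse 16 (6479 against 5514 CPM). A second label of S_al mouse 12 gave its ileum and colon libraries each other's segment code. The tissue label was used, and in its ileum library the colon markers summed to 74.6 CPM, against 939 CPM in its colon library, where the other 15 colon libraries held 969 to 2236 CPM. In the library of S_al mouse 19 a single gene, Plekhh2, took 552662 counts (11.3% of the total, or 132201 CPM), whereas the other 9 libraries held at most 2.88 CPM of it.

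By edgeR's quasi-likelihood test with Benjamini-Hochberg adjustment over 15126 genes, 0 genes (0%) differed between S_wm and S_al ileum at an adjusted p of 0.05. The lowest adjusted p was 0.067, for Dbp. An unadjusted p under 0.05 was found for 1188 genes, of which 580 were higher in S_wm (3.83% of the genes tested) and 608 were lower (4.02%). Counts at this level in the gene lists below stand beside these shares. The median log2 fold change of all tested genes was -0.00285, and 49.5% of them were higher in S_wm. DESeq2, an alternative count model, called 6 genes (0.0397%), among them Dbp, Palld and Gm5526, which were higher in S_wm, and Cars and Iba57, which were lower.

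**Figure D1:**
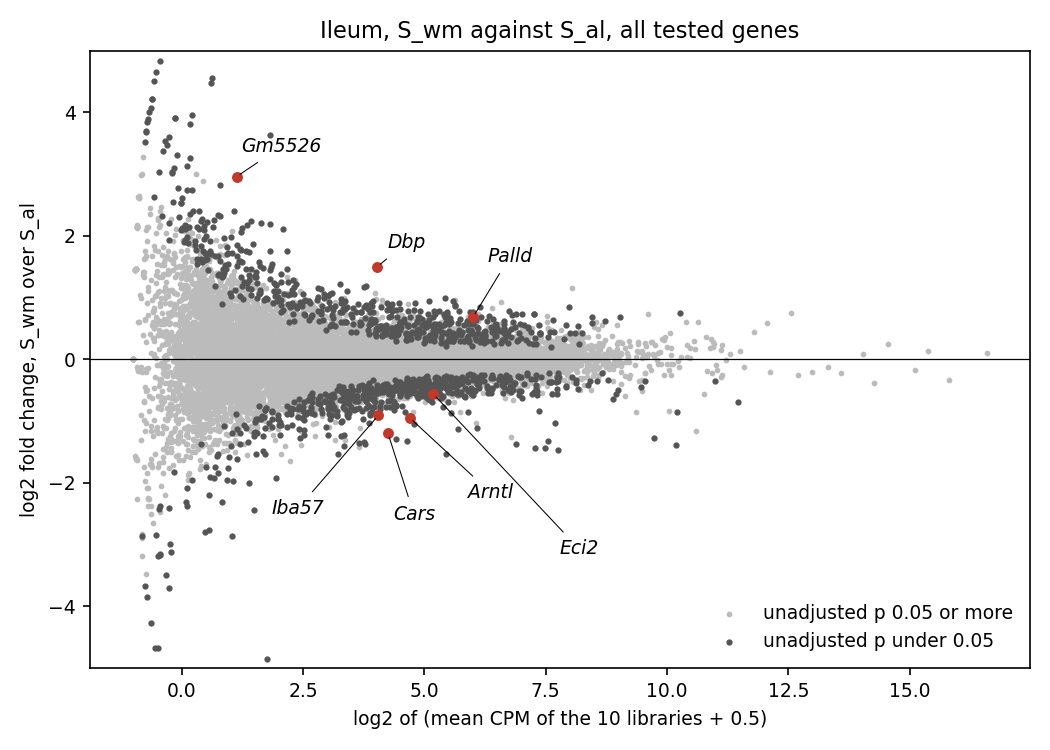
Log2 fold change of S_wm over S_al in the ileum (vertical axis) against mean expression over the 10 libraries (horizontal axis, log2 of CPM plus 0.5) for the 15126 genes tested, of which 5 lie outside the plotted range. Darker points had an unadjusted p under 0.05, and the red points are the genes labelled in the plot, none of which passed an adjusted p of 0.05 by edgeR. Of the tested genes, 49.5% lie above 0.

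The 2 groups did not form separate clusters. Over the 100 most variable genes of the 10 libraries, the groups accounted for 9.45% of the variance (exact permutation test over all partitions of the libraries, one-sided p = 0.722, where 0.00794 is the smallest p possible). The first principal component carried 31.8% and the second 17.7% of the variance, and for 4 of the 10 libraries the nearest other library belonged to the same group. The first component set S_al mouse 19 (15.14) apart from the other 9 libraries, which lay between -3.35 and 0.27. Without mouse 19 the share was 14.4% (exact permutation test, one-sided p = 0.309).

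Genes whose 5 S_wm libraries all lay above the 5 S_al libraries numbered 124 (0.82% of those tested), and genes whose S_wm libraries all lay below numbered 104 (0.688%). These shares stand beside every gene described below as without overlap. Of the 19 core clock and output genes, 2 were in the first set (Dbp and Nr1d2) and 1 in the second (Arntl). All 19 passed the filter on low counts, 14 of them with a higher mean in S_wm. At an unadjusted p under 0.05, 5 were higher and 2 were lower, beside the 3.83% and 4.02% of all genes. The median log2 fold change of the list was 0.30, against -0.00 for all genes, and it lay between 0.16 and 0.37 with each library left out in turn. The lowest median was that without S_wm mouse 27. Without S_al mouse 24, 4 were higher and 1 was lower at that level.

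The windows around the transcription starts of 4 of the clock genes with the lowest p are shown, together with that of Per3, which had an unadjusted p above 0.05 and is shown as the only clock window with a D-box. Many clock genes are known to be driven through the E-box, bound by CLOCK and BMAL1, or the D-box, bound by DBP, TEF, HLF and NFIL3, whereas Arntl is known to be controlled through elements bound by ROR and REV-ERB receptors, which were not searched. Each sequence runs from 250 bases before to 50 bases after the start in RefSeq (GRCm38.p6), on the strand of the gene, and capitals mark an E-box (CACGTG) or a D-box (TTATGTAA or its reverse complement). The windows are those of Dbp (chr7:45704997-45705296, plus strand), Tef (chr15:81811164-81811463, plus strand, the downstream of 2 starts), Nr1d1 (chr11:98775328-98775627, minus strand), Arntl (chr7:113207215-113207514, plus strand, the upstream of 2 starts) and Per3 (chr4:151044616-151044915, minus strand).
Dbp: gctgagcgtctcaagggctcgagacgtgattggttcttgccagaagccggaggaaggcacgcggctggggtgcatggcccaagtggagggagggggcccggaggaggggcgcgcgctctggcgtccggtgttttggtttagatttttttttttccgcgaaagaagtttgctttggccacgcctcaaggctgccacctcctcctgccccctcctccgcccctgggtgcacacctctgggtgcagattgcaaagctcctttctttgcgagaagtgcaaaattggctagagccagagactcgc
Tef: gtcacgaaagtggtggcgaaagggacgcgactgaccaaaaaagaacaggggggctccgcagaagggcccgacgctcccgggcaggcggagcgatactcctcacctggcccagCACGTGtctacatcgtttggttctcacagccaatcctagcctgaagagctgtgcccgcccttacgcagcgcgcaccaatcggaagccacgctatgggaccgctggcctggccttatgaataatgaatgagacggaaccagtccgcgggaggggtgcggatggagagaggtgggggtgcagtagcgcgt
Nr1d1: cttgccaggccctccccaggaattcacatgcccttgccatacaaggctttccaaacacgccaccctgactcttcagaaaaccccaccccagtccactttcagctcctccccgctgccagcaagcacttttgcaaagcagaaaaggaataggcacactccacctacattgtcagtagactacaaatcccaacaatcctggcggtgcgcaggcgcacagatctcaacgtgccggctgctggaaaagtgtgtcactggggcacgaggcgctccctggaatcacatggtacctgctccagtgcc
Arntl: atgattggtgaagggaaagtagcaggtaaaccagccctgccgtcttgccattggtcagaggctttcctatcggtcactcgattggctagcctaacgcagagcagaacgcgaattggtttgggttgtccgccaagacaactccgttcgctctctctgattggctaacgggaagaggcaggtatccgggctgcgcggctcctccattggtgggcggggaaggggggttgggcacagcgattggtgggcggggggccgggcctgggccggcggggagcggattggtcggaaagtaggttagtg
Per3: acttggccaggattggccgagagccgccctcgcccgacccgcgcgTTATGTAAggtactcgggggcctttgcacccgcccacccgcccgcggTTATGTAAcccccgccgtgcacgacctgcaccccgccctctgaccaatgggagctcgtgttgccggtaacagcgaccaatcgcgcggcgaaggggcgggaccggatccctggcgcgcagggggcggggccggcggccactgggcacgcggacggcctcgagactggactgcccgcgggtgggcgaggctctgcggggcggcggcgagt

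Of the 19 clock genes 16 had a window in the table. An E-box was found in 6 of their 21 windows, belonging to Tef, Ciart, Bhlhe41, Cry1 and Per1, and a D-box in 1 window, that of Per3. Of all 32851 windows, 7.15% held this E-box and 0.938% held this D-box, searched on both strands. The windows of Dbp, Nr1d1, Nr1d2, Nfil3 and Arntl held neither word, which says only that these letters are not within these 300 bases.

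Dbp encodes a transcription factor of the clock output that activates D-box genes. It was counted at 5.05, 5.74, 7.03, 11.1 and 12.1 CPM in the S_al libraries and at 16.2, 22.9, 24.5, 26.6 and 26.9 CPM in the S_wm libraries. The lowest S_wm library therefore stood above the highest S_al library, with means of 8.2 ± 3.18 and 23.4 ± 4.32 CPM (SD, n = 5 each). The log2 fold change was 1.50 (standard error, SE, 0.29; edgeR adjusted p = 0.067, DESeq2 adjusted p = 0.00345). It passed 0.05 by edgeR without S_al mouse 12 (1.70, adjusted p = 0.0325) or S_wm mouse 29 (1.61, adjusted p = 0.0388) and with the library index as a covariate (1.54, adjusted p = 0.0457), and over all alternatives its adjusted p ranged from 0.00345 to 0.301. Dbp lies on chromosome 7 from 45705088 to 45710203 (GRCm38) and overlaps Sphk2 on the opposite strand. The strand setting of the counting is not stated in the sources used here, so reads of these 2 genes may not have been told apart.

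Arntl, which encodes the BMAL1 arm of the activator complex and lies on chromosome 7 from 113207465 to 113314126, was counted at 30.1, 31.2, 31.4, 34.7 and 41.4 CPM in S_al and at 15.3, 15.8, 16, 18.8 and 21.1 CPM in S_wm libraries. The groups did not overlap, in the direction opposite to Dbp. Its log2 fold change was -0.95 (SE 0.231, edgeR adjusted p = 0.262, DESeq2 adjusted p = 0.0919), and it stayed between -1.03 and -0.87 with each library left out.

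Tef, a relative of Dbp with the same DNA-binding specificity, was counted at 24.5, 26.9, 29.4, 39.4 and 41.1 CPM in S_al and at 40.7, 51.1, 53.7, 54.9 and 74.4 CPM in S_wm libraries. Only the lowest S_wm library, that of mouse 29, fell within the S_al range. Its log2 fold change was 0.77 (SE 0.212, edgeR adjusted p = 0.313). Hlf, the other member of this family, was near the limit of detection, with at most 1.77 CPM in S_al and 2.22 CPM in S_wm libraries.

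The repressors Nr1d1 and Nr1d2, nuclear receptors also called REV-ERB alpha and beta, lay on the side of Dbp. Nr1d1 was counted at 24.5, 25.3, 41.1, 41.6 and 43.5 CPM in S_al and at 39.2, 62.9, 62.9, 71 and 81.5 CPM in S_wm libraries (log2 fold change 0.86, SE 0.249, edgeR adjusted p = 0.402). Mouse 29 was again the S_wm library within the S_al range. Nr1d1 overlaps Thra on the opposite strand. Nr1d2 was counted at 21.3 to 32.5 CPM in S_al and at 35.1 to 41.9 CPM in S_wm libraries without overlap (log2 fold change 0.59, SE 0.172, edgeR adjusted p = 0.402).

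Nfil3, a D-box repressor that NR1D1 silences, lay on the side of Arntl. It was counted at 7.96, 9.57, 12.1, 13.4 and 21.9 CPM in S_al and at 3.53, 4.97, 6.41, 8.01 and 13.3 CPM in S_wm libraries, with overlapping ranges (log2 fold change -0.85, SE 0.325, edgeR adjusted p = 0.538). Per2, a repressor of CLOCK and BMAL1, was the remaining gene at an unadjusted p under 0.05 and was counted at 15.9 to 24.2 CPM in S_al and 19.2 to 35.3 CPM in S_wm libraries (log2 fold change 0.54, edgeR adjusted p = 0.578). The other 12 members, among them Clock, Per1, Cry1 and Rora, had an unadjusted p of 0.05 or more.

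**Figure D2:**
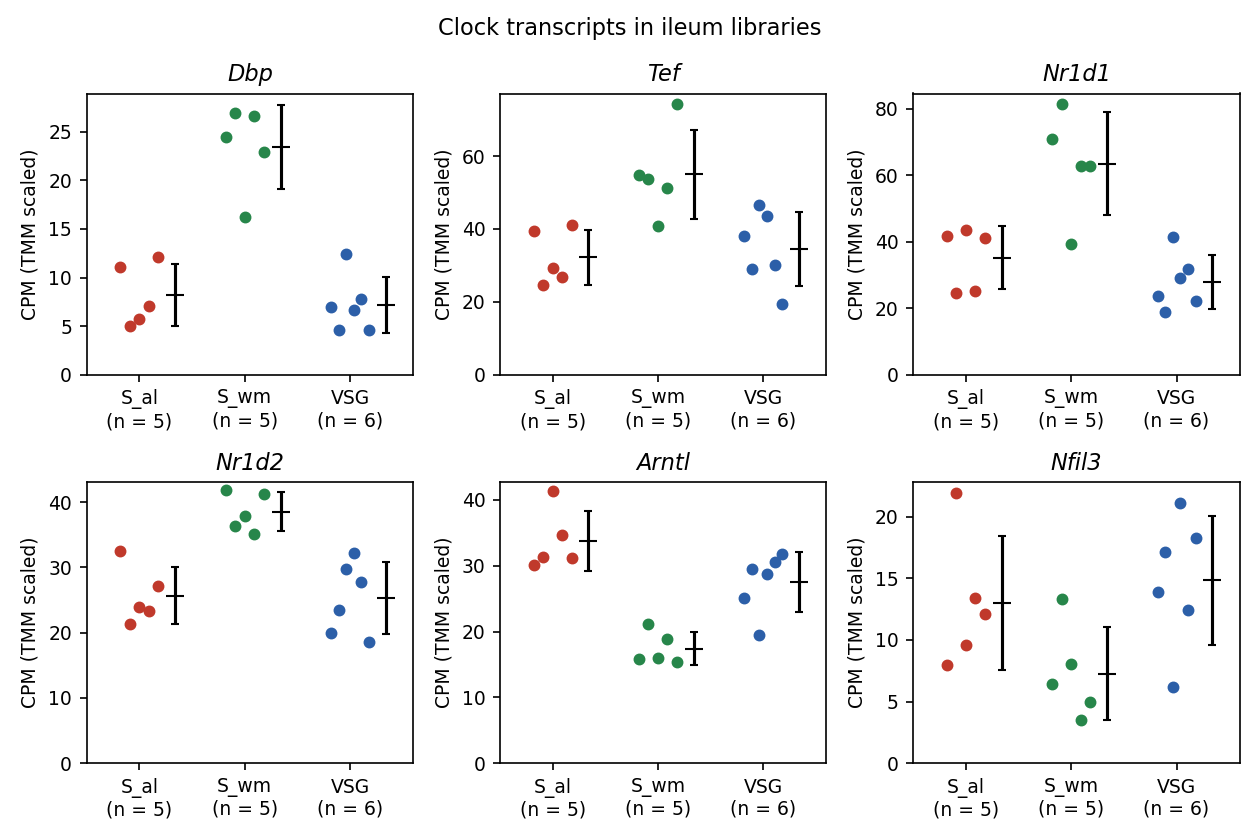
CPM (vertical axes, starting at 0) of 6 clock transcripts in each ileum library of the S_al, S_wm and VSG groups. Points are libraries, and the bar and whiskers are the mean ± SD. For Dbp the S_wm points, from 16.2 to 26.9 CPM, lie above all S_al and VSG points, and for Arntl the S_wm and S_al points do not overlap.

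The VSG mice set the body weight to which the S_wm mice were held, and they also received vitamin B12 injections. Portioned feeding is described for the S_wm group only. In their 6 ileum libraries Dbp was counted at 4.57 to 12.4 CPM, which was within or just beyond the S_al range and below every S_wm library. The log2 fold change of VSG over S_wm was -1.66 (SE 0.273, edgeR adjusted p = 0.00302), and that of VSG over S_al was -0.16 (SE 0.286, edgeR adjusted p = 0.994). Between VSG and S_wm ileum, edgeR called 7 genes (0.0463%), of which Nr1d1 was another clock gene (log2 fold change -1.18, adjusted p = 0.0313). These comparisons share their S_wm or S_al libraries with the comparison above and are not independent of it.

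In the other regions the same contrast gave similar values for Dbp. The log2 fold change of S_wm over S_al was 1.45 in the duodenum (SE 0.284, edgeR adjusted p = 0.0857) and 1.48 in the colon (SE 0.272, adjusted p = 0.014). The ileum value differed from the duodenum value by 0.05 (SE 0.403) and from the colon value by 0.02 (SE 0.37). Arntl had a log2 fold change of -0.64 in the duodenum and -1.36 in the colon (edgeR adjusted p = 0.00783). These regions came largely from the same mice.

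Across all genes, edgeR called 0 genes (0%) between S_wm and S_al in the duodenum, with 990 at an unadjusted p under 0.05, and 2 in the colon (0.0132%), which were Arntl and Dbp. The difference of the S_wm against S_al contrast between ileum and duodenum was past an adjusted p of 0.05 for 0 genes by edgeR (lowest adjusted p = 0.174, 791 at an unadjusted p under 0.05), and that between ileum and colon for 0 genes (lowest adjusted p = 0.596, 1012 at an unadjusted p under 0.05). With the library index as a covariate, 1 gene (Defa34, a Paneth cell defensin) passed in the first of these. No gene is therefore described here as particular to the ileum.

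Outside the clock list, the genes of lowest p that were higher in S_wm included Palld (palladin, an actin-bundling scaffold), Acvr1 (a receptor for bone morphogenetic proteins), Rapgef2 (an activator of the GTPase Rap) and Neil1 (a DNA repair glycosylase). Palld was counted at 39.6, 44.2, 48.1, 54.4 and 59.1 CPM in S_al and at 66.8, 73.4, 80.4, 82.4 and 88.4 CPM in S_wm libraries, without overlap. Its log2 fold change was 0.68 (SE 0.138, edgeR adjusted p = 0.0924, DESeq2 adjusted p = 0.0158), against 0.15 in the duodenum and -0.11 in the colon. The groups of Acvr1 (log2 fold change 0.55), Rapgef2 (0.57) and Neil1 (1.10) did not overlap either. Palld, Acvr1, Rapgef2 and, among the lower genes, Cars overlap other annotated transcripts on the opposite strand.

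The remaining genes of lowest p on this side were Tmem185a (log2 fold change 0.84) and the poorly expressed Gm572, Gm5526 and Dtnbos. Gm5526, annotated as a processed pseudogene, had 11 counts in the S_al and 98 in the S_wm libraries together, and near-identical copies could share its reads. Gm572 had 12 and 70 counts, and Dtnbos, which is antisense to Dtnb, had 8 and 73.

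The gene of lowest p among those lower in S_wm was Cars, the cysteinyl-tRNA synthetase. It was counted at 18.1, 23.3, 24.6, 27.9 and 34.6 CPM in S_al and at 7.38, 11.1, 11.8, 12.8 and 12.9 CPM in S_wm libraries, without overlap. The log2 fold change was -1.20 (SE 0.262, edgeR adjusted p = 0.174, DESeq2 adjusted p = 0.0297), against -0.11 in the duodenum and 0.20 in the colon. Ctu2, which thiolates transfer RNAs, was counted at 11.3 to 14.6 CPM in S_al and 4.26 to 9.29 CPM in S_wm libraries (log2 fold change -0.83, SE 0.217, edgeR adjusted p = 0.262). Ctu2 overlaps Piezo1 on the opposite strand.

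Iba57, an assembly factor for mitochondrial iron-sulfur proteins, was counted at 14, 20.3, 21, 23.7 and 25.8 CPM in S_al and at 7.52, 10, 10.8, 11.8 and 15.7 CPM in S_wm libraries. Only S_wm mouse 31 and S_al mouse 24 overlapped. Its log2 fold change was -0.91 (SE 0.206, edgeR adjusted p = 0.19, DESeq2 adjusted p = 0.0497). Eci2, an isomerase needed to oxidise unsaturated fatty acids, lay at -0.56 (SE 0.141, edgeR adjusted p = 0.262), and its groups overlapped through S_al mouse 19 (30.6 CPM) and S_wm mouse 31 (31.4 CPM).

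D630039A03Rik (log2 fold change -0.66), the nucleosome-binding protein Hmgn1 (-0.70) and Kdsr, an enzyme of sphingolipid synthesis (-0.62), were further genes of this set. Beside Cars and Arntl, the groups were without overlap for D630039A03Rik and Ctu2. Habp2 (-1.37) and Clps (-1.29), the pancreatic colipase gene, were highest in S_al mouse 32, at 43.1 and 70.5 CPM, where the other S_al libraries held at most 18.5 and 26.7 CPM. With each library left out the value for Clps lay between -1.48 and -0.70.

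Of 23 genes of fatty acid oxidation and other PPAR targets, 22 passed the filter on low counts. Their median log2 fold change was -0.31, with 3 higher and 19 lower in S_wm, and 8 were lower and 0 higher at an unadjusted p under 0.05 (beside 4.02% and 3.83% of all genes). None passed an adjusted p of 0.05 by edgeR (lowest 0.385). With each library left out the number at an unadjusted p under 0.05 lay between 5 and 11 and the median between -0.38 and -0.21. The count was 5 without S_al mouse 12 and 5 without S_wm mouse 27.

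Cpt1a, which admits long-chain fatty acids to the mitochondrion, had the lowest p of this list. It was counted at 168 to 297 CPM in S_al and at 124, 126, 158, 175 and 216 CPM in S_wm libraries (log2 fold change -0.57, SE 0.163, edgeR adjusted p = 0.385). S_al mice 24 and 19 and S_wm mice 21 and 29 fell in the overlap. The difference was -0.18 in the duodenum and 0.13 in the colon, and the ileum value differed from these by -0.39 (SE 0.23, adjusted p = 0.85) and -0.70 (SE 0.23, edgeR adjusted p = 0.703).

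Angptl4, a secreted inhibitor of lipoprotein lipase and a PPAR target, had the value -1.35 (SE 0.548), with 9.57 to 36 CPM in S_al and 1.7 to 11.7 CPM in S_wm libraries.

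The acyl-CoA thioesterases Acot2 (log2 fold change -0.81, SE 0.262) and Acot1 (-0.87, SE 0.36), the carnitine carrier Slc25a20 (-0.61), the trifunctional protein subunit Hadha (-0.35) and the fatty acid hydroxylase Cyp4a10 (-1.76) were also among the 8. For Acot2 the S_wm library of mouse 29 held 14.3 CPM and the other 4 held 4.17 to 7.72 CPM, against 10.5 to 16.1 CPM in S_al libraries. Among the 3 members that were higher in S_wm, the fatty acid transporter Cd36 had the lowest p (log2 fold change 0.60, edgeR adjusted p = 0.795). Acot1 and Acot2 are close paralogs, so their split of reads is uncertain.

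Nuclear genes of oxidative phosphorylation were lower in S_wm for 20 of 20 members, with a median log2 fold change of -0.24, and 1 of them, Ndufa4, had an unadjusted p under 0.05 (log2 fold change -0.54). In the same contrast 20 of the 20 were higher in the duodenum (median 0.24) and 18 in the colon (median 0.14). Without S_al mouse 24 the ileum median was -0.13, with 1 higher and 0 at an unadjusted p under 0.05. The 7 testable members encoded by the mitochondrial genome were all higher, by 0.14 to 0.24 (median 0.20), with 0 at an unadjusted p under 0.05, and their median lay between 0.10 (without S_al mouse 24 or S_wm mouse 29) and 0.34 (without S_al mouse 12). The genes of a list were measured in the same 10 libraries, so these same-sign counts are not independent observations. Fatty acid synthesis (13 genes, median -0.09) and cholesterol synthesis (20 genes, median -0.06) lay near 0, and without S_al mouse 12 the cholesterol median was 0.14, with 16 higher. Of these, Fads2 (-0.54) and Gpam (-0.43) were lower and 0 were higher at an unadjusted p under 0.05.

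The zinc-binding metallothioneins Mt1 and Mt2 were lower in S_wm without overlap between the groups, beside 0.688% of all genes. Mt2 was counted at 12.5, 13.5, 21.2, 22.5 and 24.3 CPM in S_al and at 4.32, 5.26, 7.85, 8.8 and 10.5 CPM in S_wm libraries (log2 fold change -1.34, SE 0.396, edgeR adjusted p = 0.406). Mt1 was counted at 59.5 to 90.9 CPM in S_al and 33.9 to 54.1 CPM in S_wm libraries (log2 fold change -0.85, SE 0.288). Metallothioneins and the other 12 genes of this list are known glucocorticoid targets or parts of the response. Of the others, Nr3c2, the mineralocorticoid receptor, was counted at 23.5 to 41.1 CPM in S_al and 44.5 to 48.5 CPM in S_wm libraries (log2 fold change 0.58, edgeR adjusted p = 0.567). The list had 2 higher and 2 lower genes at an unadjusted p under 0.05, beside 3.83% and 4.02% of all genes, with a median of -0.13.

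Of the 16 genes of the amino acid and integrated stress response, 3 were lower and 0 higher at an unadjusted p under 0.05, beside 4.02% and 3.83% of all genes. The number lower was 1 without S_al mouse 24 and 5 without S_al mouse 19. The 3 were Asns, the asparagine synthetase (log2 fold change -0.57, SE 0.18, edgeR adjusted p = 0.46), the transcription factor Atf5 (-0.62) and the translation repressor Eif4ebp1 (-0.57). Trib3, a target of the same pathway, had the value 0.96 (SE 0.524). The median of the list was -0.07, and the 14 genes of the unfolded protein response lay between -0.21 and 0.26.

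**Figure D3:**
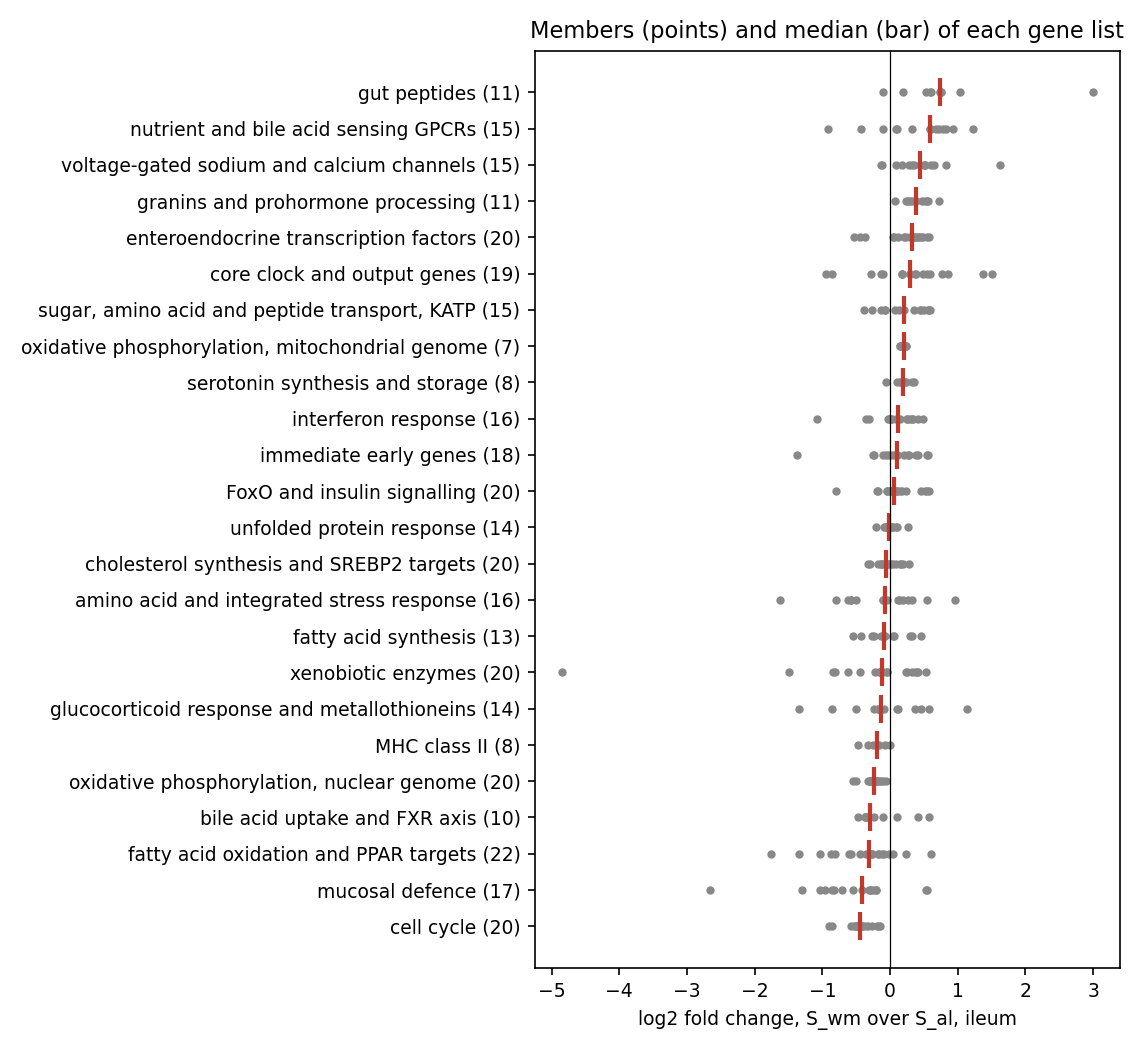
Log2 fold change of S_wm over S_al in the ileum (horizontal axis) for the tested members of 24 gene lists, with the number tested in brackets. Points are genes and red bars are medians, which ran from -0.44 for the cell cycle list to 0.74 for the gut peptides, and none of the points passed an adjusted p of 0.05 by edgeR.

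The 11 gut peptide genes had a median log2 fold change of 0.74, and 10 of them were higher in S_wm, 1 at an unadjusted p under 0.05. With each library left out this number lay between 0 and 5, the latter without S_al mouse 24. The gene was Sct, which encodes secretin, counted at 570, 777, 906, 1076 and 1231 CPM in S_al and at 1058, 1189, 1379, 1806 and 2249 CPM in S_wm libraries (log2 fold change 0.75, SE 0.323, edgeR adjusted p = 0.592). Nts was counted at 3256, 4264, 4655, 4836 and 5451 CPM in S_al and at 4800, 5154, 6015, 10619 and 11292 CPM in S_wm libraries (log2 fold change 0.75, SE 0.374, edgeR adjusted p = 0.632). The S_wm libraries of mice 29 and 31 accounted for the upper end.

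Gcg was counted at 1069, 1104, 1222, 1461 and 1798 CPM in S_al and at 571, 828, 831, 1597 and 3748 CPM in S_wm libraries. Its log2 fold change was 0.19 (SE 0.464, edgeR adjusted p = 0.95), and it was -0.48 without S_wm mouse 29, which held the highest value. Pyy was counted at 448 to 772 CPM in S_al and 327 to 1953 CPM in S_wm libraries (log2 fold change 0.74, SE 0.42, edgeR adjusted p = 0.698), again with mouse 29 highest. The values were 0.53 for Cck (cholecystokinin), 0.59 for Gip (glucose-dependent insulinotropic polypeptide), 0.60 for Sst (somatostatin), 0.74 for Ghrl (ghrelin) and 1.03 for Insl5, with SEs of 0.371, 0.605, 0.532, 0.466 and 0.806. Tac1, the substance P precursor, had the value -0.10, and Gast was counted 4 times in S_wm and 0 times in S_al libraries.

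The gut peptide values differed between the library indices that the labels give. Among libraries with index D501 (2 S_al, 2 S_wm) the median difference of the 11 genes in log2(CPM + 0.5) was -0.34, and among those with D503 (2 S_al, 3 S_wm) it was 1.13. The remaining S_al library, of mouse 12, had D504. For the clock list the corresponding medians were 0.35 and 0.27, for fatty acid oxidation -0.28 and -0.17, and for Dbp the differences were 1.71 and 1.68. With the index as a covariate over all libraries, the gut peptide median was 0.76, with 10 of 11 genes higher and 1 at an unadjusted p under 0.05.

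The 11 granins and prohormone processing genes were all higher in S_wm (median 0.38), 2 of them at an unadjusted p under 0.05, beside 3.83% of all genes. The 2 were Pcsk1n (0.73, edgeR adjusted p = 0.538), which encodes an inhibitor of prohormone convertase 1, and Scg3 (0.56). Without S_al mouse 12 the median of this list was 0.22, with 1 gene at that level, and fits of the 10 or the 16 ileum libraries gave 4. Chga, Chgb and Scg2 had the values 0.08, 0.24 and 0.55. In the same contrast 5 of the 11 genes were higher in the duodenum (median -0.05) and 1 in the colon (median -0.31). In the ileum their median difference in log2(CPM + 0.5) was 0.10 among libraries with index D501 and 0.50 among those with D503. Of 20 enteroendocrine transcription factors 17 were higher (median 0.33), 1 of them at an unadjusted p under 0.05. At that level 8 were higher and 1 lower in a fit of the 10 libraries alone, 5 were higher in a fit of the 16 ileum libraries and 3 were higher without S_al mouse 19, and without S_wm mouse 29 the median was 0.19 with 0 at that level. Of all genes, both directions together, 1246 of 12607 were at that level in the fit of the 10 libraries. The fit of the 16 ileum libraries had 1024 of 13236, and the main fit 1188 of 15126. These totals stand beside the counts from the same fits in the other lists. Pax4 (-0.53) had the lowest p among the 3 transcription factors that were lower. Neurod1 itself was counted at 225 to 393 CPM in S_al and 344 to 595 CPM in S_wm libraries (log2 fold change 0.49, SE 0.257, edgeR adjusted p = 0.669). The 8 genes of serotonin synthesis and storage had a median of 0.19 and 0 at an unadjusted p under 0.05.

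**Figure D4:**
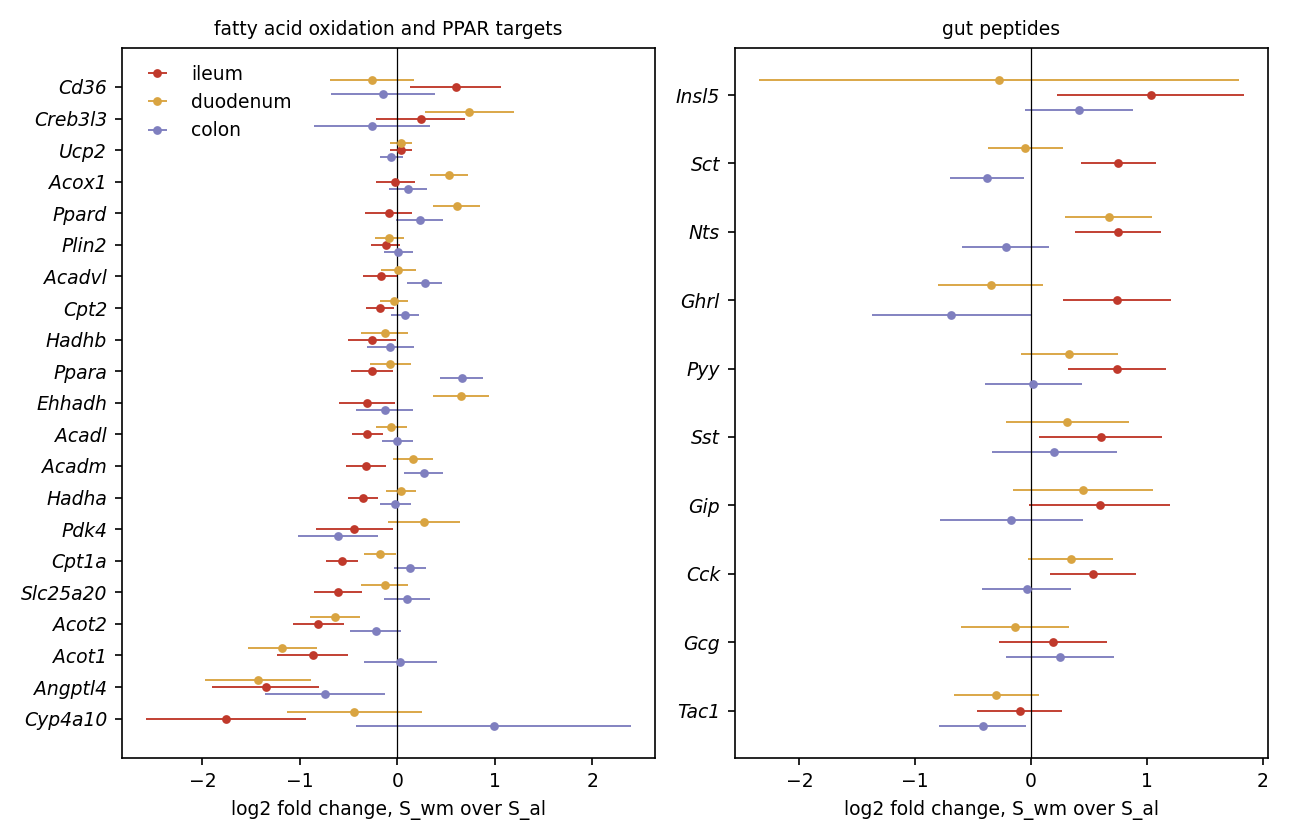
Log2 fold change of S_wm over S_al (horizontal axes, points, with the SE as whiskers) for 21 of the tested genes of fatty acid oxidation (left) and 10 gut peptide genes (right, without Gast) in the ileum, duodenum and colon. In the ileum 18 of the 21 genes lie left of 0, and 9 of the 10 peptide genes lie right of 0.

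Of 16 nutrient and bile acid sensing GPCRs, 15 passed the filter and 12 were higher in S_wm, with a median log2 fold change of 0.59. Their median difference in log2(CPM + 0.5) was 0.11 among libraries with index D501 and 0.50 among those with D503. Glp1r, the receptor for glucagon-like peptide 1, was counted at 2.56, 3.76, 4.23, 7.67 and 9.81 CPM in S_al and at 9.86, 10.3, 10.7, 14.1 and 18.3 CPM in S_wm libraries. The groups were separated by 0.05 CPM at their nearest (log2 fold change 1.22, SE 0.413, edgeR adjusted p = 0.508). The fatty acid receptor Ffar1 (0.72) and Gpr119, which senses lipid amides and monoacylglycerols (0.83), were also at an unadjusted p under 0.05, both with mouse 29 highest. These 3 of 15 genes stand beside 3.83% of all genes, and their number was 1 without S_al mouse 13, S_wm mouse 29 or S_wm mouse 31, 5 in fits of the 10 or the 16 ileum libraries and 6 with the index as a covariate. Gpr35 was counted at 6.54 to 17.5 CPM in S_al and 4.19 to 7.1 CPM in S_wm libraries (log2 fold change -0.92, SE 0.295, edgeR adjusted p = 0.46).

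Of 15 tested sodium, calcium and sensory channels 13 were higher (median 0.44), with the L-type calcium channel Cacna1c at 0.65 and an unadjusted p under 0.05, a level that 4 reached in fits of the 10 or the 16 ileum libraries. The peptide transporter Slc15a1 was the only one of 15 transport and potassium channel genes at that level (0.59, edgeR adjusted p = 0.632), and 5 were at that level in a fit of the 10 libraries alone. In the bile acid list, 1 of 10 genes was at that level, the exporter Abcc3 (0.42). The ileal bile acid genes Slc10a2 and Fabp6 had the value -0.37 each, and both turned to the other sign without S_al mouse 12 (0.74 and 0.50), whose library held 206 and 848 CPM of them.

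Sorted cell preparations can hold other epithelial cells, and in bulk libraries fewer cells of a type and less RNA per cell cannot be told apart. The 7 Paneth cell markers were all lower in S_wm (median -1.27), 5 of them at an unadjusted p under 0.05 (4.02% of all genes were lower at that level). Their sum was 1750, 4063, 4191, 5826 and 12030 CPM in S_al and 1790, 2098, 2164, 2614 and 2883 CPM in S_wm libraries. S_al mouse 32 held the highest sum, S_al mouse 19 the lowest, and without mouse 32 the median was -0.81 and 0 markers were at an unadjusted p under 0.05. That number was 3 without S_wm mouse 16, 27 or 29. The median difference of the markers in log2(CPM + 0.5) was -1.70 among libraries with index D501 and -0.29 among those with D503. The defensin Defa24 was at -1.39, lysozyme (Lyz1) at -1.17 and Itln1 at -1.27 (edgeR adjusted p = 0.62, 0.672 and 0.594). In the same contrast all 7 markers were higher in the duodenum (median 1.74), and 1 of the 7 was higher in the colon (median -1.83). The markers summed to only 4.5 to 141 CPM in the colon libraries other than that of mouse 12.

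The 7 crypt stem cell markers were all lower as well (median -0.56, 3 at an unadjusted p under 0.05, beside 4.02% of all genes), with sums of 1803 to 4427 CPM in S_al and 1473 to 2732 CPM in S_wm libraries. Without S_al mouse 32 the median was -0.49 and 0 were at that level, and without S_al mouse 13 or S_wm mouse 21 or 31 the number was 1. Olfm4, a marker of the crypt base, was at -0.56 and the stem cell receptor Lgr5 at -0.67. The 20 cell cycle genes were all lower (median -0.44), 1 of them, the mitotic kinase Aurka (-0.90), at an unadjusted p under 0.05. A fit of the 10 libraries alone put 7 of them at that level, and without S_al mouse 13 the median was -0.28, with 2 higher and 0 at that level. Without S_al mouse 19 there were 3. Enterocyte markers summed to 7464 to 15717 CPM in S_al and 7809 to 19380 CPM in S_wm libraries, with 12 of 14 higher (median 0.26) and 0 at an unadjusted p under 0.05. The median lay between 0.13 (without S_wm mouse 16) and 0.44 (without S_al mouse 12), and it was 0.14 without S_al mouse 13 and 0.41 without S_wm mouse 27.

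The 12 markers of enteroendocrine cells are all members of the granin or transcription factor lists above, so they add no further genes. They lay on the opposite side to Paneth and stem cell markers. In S_wm 12 of 12 were higher (median 0.35), 1 of them at an unadjusted p under 0.05. That number was 6 in a fit of the 10 libraries alone and 4 in a fit of the 16 ileum libraries, and without S_al mouse 12 it was 0, with a median of 0.23. Goblet (median -0.12) and tuft cell markers (-0.33) had 0 genes at that level. The goblet median had the other sign, 0.22 with 6 of 7 higher, without S_al mouse 12, and it was 0.03 without S_wm mouse 29 and 0.06 with the index as a covariate. Immune markers summed to 11.2 to 26.7 CPM in S_al and 5.11 to 28.7 CPM in S_wm libraries, and markers of enteric neurons and glia to at most 1.28 CPM. The pancreatic markers Cela2a, Prss2, Cpa1 and Amy2a5 were at 0 counts in all 10 libraries. Whether these sums followed the hormone, granin, cell cycle and mucosal defence lists from library to library was not tested. Their part in the values of those lists was not tested either.

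**Figure D5:**
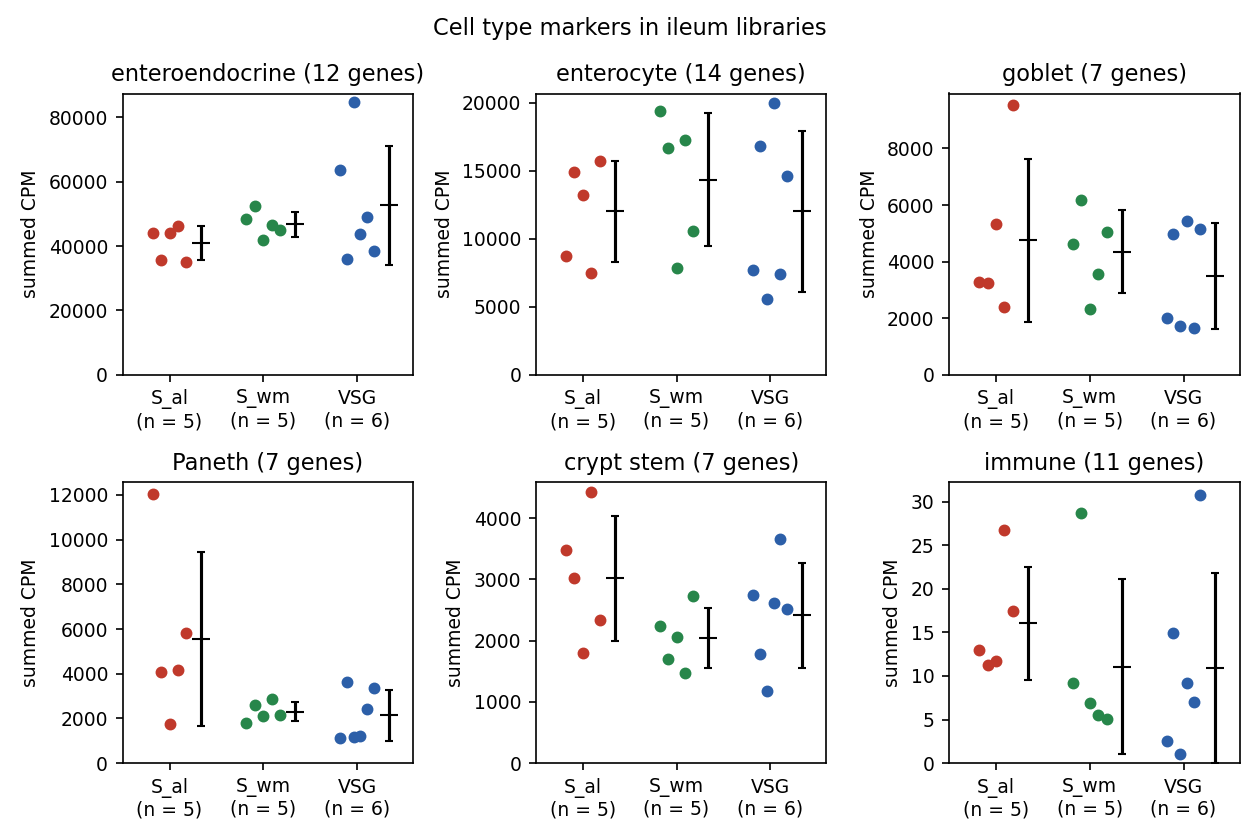
Summed CPM (vertical axes, starting at 0) of 6 cell type marker lists in each ileum library of the S_al, S_wm and VSG groups, with the number of genes in brackets. Points are libraries, and the bar and whiskers are the mean ± SD. The S_wm and S_al points overlap in every panel, and the Paneth sum of 12030 CPM belongs to S_al mouse 32.

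Of 17 testable mucosal defence genes 15 were lower in S_wm (median -0.41) and 0 were at an unadjusted p under 0.05. In the same contrast all 17 were higher in the duodenum (median 0.47) and 10 were higher in the colon (median 0.06). The antimicrobial lectins Reg3b and Reg3g had the values -0.83 (SE 0.669) and -0.85 (SE 0.62) in the ileum. Reg3b was counted at 443 to 2359 CPM in S_al and at 599 to 876 CPM in S_wm libraries, so that the S_wm range lay within that of S_al. The 8 genes of MHC class II (median -0.19) and the 16 interferon response genes (median 0.12) also had 0 at that level.

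Of the remaining lists, 18 testable immediate early genes had a median of 0.10 and 1 gene at an unadjusted p under 0.05, Nr4a2 (0.55). The 20 genes of FoxO and insulin signalling had a median of 0.06, with Ccng2, a cyclin induced by FoxO factors, at that level (0.55, edgeR adjusted p = 0.629). Among 20 xenobiotic enzymes (median -0.12), Ces1g (-1.49) and Cyp1a1 (-4.85) were at that level. Cyp1a1 was counted at 27.2 CPM in S_al mouse 32 and at no more than 0.957 CPM in any other of the 10 libraries. Ugt1a1, of the same list, was counted at 41.6 to 58.5 CPM in S_al and 29.9 to 40.8 CPM in S_wm libraries (log2 fold change -0.44, edgeR adjusted p = 0.793). The medians of the glucocorticoid, stress response, unfolded protein, immediate early, interferon, xenobiotic and bile acid lists had either sign with single libraries left out, and no direction is given for them.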

How the data were processed

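Neurod1-labelled cells were sorted by the authors from 3 gut regions of 17 mice, and 1 table of raw counts for 53465 genes was deposited by the authors, aligned with STAR 2.5.1 to GRCm38. Every column was matched to a labelled library. Gene positions and overlaps were taken from GENCODE M21 (GRCm38), to which 53360 genes matched by identifier, and promoter sequences from RefSeq (GRCm38.p6).

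Counts were fitted with edgeR 4.0.16 in R 4.3.3 over all 48 libraries with 1 mean for each of 9 groups, filterByExpr (15126 genes kept), TMM scaling, a robust quasi-likelihood test and Benjamini-Hochberg adjustment. CPM values are TMM scaled. Standard errors were derived from the log2 fold change and the F statistic (ratio of its size to the root of F). Variance-stabilized values for the variance share came from DESeq2 1.42.0. The script was tested on simulated counts. Alternatives were DESeq2, DESeq2 size factors, other filters, voom in limma 3.58.1 with a random block for each mouse, fewer libraries, the library index and omission of single libraries.

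The comparison and its gene lists were chosen with earlier results of these data known. Named genes are the 10 of lowest p in each direction with a mean of at least 1 CPM, the member of lowest p in each direction of every list, and fixed hormone genes. A further 31 genes, such as Tef and Nr1d1, were named after their values were seen. Labels give each mouse 1 ileum library, so n counts mice. SDs cover the spread between the 5 mice of a group. SEs and p-values of single genes rest on a spread estimated over all 48 libraries and 9 groups, unless another fit is named. In the main fit, libraries of 1 mouse from different regions were treated as independent. Counts and medians of lists cover all their members, and the values of some members are not reported here.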

Additional observations from a re-analysis of the deposited data

Results flagged for a closer look

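Dixon's ratio marked 27 of 260 searched groups of 5 libraries, in which 1 library stood apart by more than 0.71 of the group's range. Chance marks about 1 in 20 groups, and several genes below were chosen for their values. No cause was tested.

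In S_al ileum, mouse 19 stood apart for Plekhh2 (132201 CPM, the next library 1.55 CPM) and Scg3 (299 CPM). Mouse 32 stood apart for Clps (70.5 CPM), Cela1 (6.85 CPM), Car1 (13.5 CPM), Defa24 (4169 CPM) and Cyp1a1 (27.2 CPM). Mouse 12 stood apart for Scd2 (95.9 CPM), Slc10a2 (206 CPM) and Fabp6 (848 CPM). Mouse 24 stood apart for Rapgef2, at the low end (19.1 CPM), and for Lrg1 (0.935 CPM) and Pdx1 (8.41 CPM).

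In S_wm ileum, mouse 27 stood apart for Dtnbos (5.54 CPM), Tac1 (554 CPM), Igfbp3 (16.2 CPM) and Lyz2 (3.97 CPM). Mouse 21 stood apart for the summed immune markers (28.7 CPM), Cd3g (4.01 CPM) and Hbb-bs (0.154 CPM). Mouse 31 stood apart for the total count (7421731), for Car1 (2.49 CPM) and, at the low end, for Gpam (11.5 CPM). Mouse 16 stood apart for Gast (0.657 CPM) and Cacna1d (26.3 CPM), and mouse 29 for Lrg1 (0.16 CPM) and Prox1 (94.3 CPM).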

How the results depend on the processing

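The count of 0 genes called in the ileum was tried against 19 alternatives. It was 6 with DESeq2, 1 with the second library index as a covariate and 1 when mouse 12 was left out of ileum and colon, and it ranged from 0 to 1 with each library left out, the 1 being Dbp without S_al mouse 12 or S_wm mouse 29. With limma voom and the mouse as a random replicate block, which pairs libraries of 1 animal across regions (correlation within a mouse 0.128), 0 genes were called. The groups compared hold different mice, so the block pairs no S_wm with an S_al library. The difference from the duodenum gave 1 gene with the index covariate, and the difference from the colon gave 0 under every alternative run. The variance share lay between 8.93% and 14.4%, with an exact permutation p above 0.05 throughout.

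Of 124 named genes, 13 had a log2 fold change of the other sign under at least 1 alternative, and 6 passed an adjusted p of 0.05 under at least 1. With single libraries left out, the range was -0.34 to 0.03 for Tac1, -0.16 to 0.11 for Slc6a4, -0.35 to 0.04 for Sdf2l1, -0.31 to 0.43 for Dclk1, -0.93 to 0.01 for Alox5ap, -0.01 to 1.58 for Cd3g, -0.34 to 0.05 for Pecam1, -0.48 to 0.22 for Onecut2, -0.74 to 0.74 for Slc10a2, -0.62 to 0.50 for Fabp6, -0.48 to 0.39 for Gcg, 0.00 to 3.33 for Gast and -14.29 to 1.01 for Plekhh2. The value with the voom block was -0.28 for Dclk1, 0.04 for Slc10a2, -0.14 for Gcg and -0.18 for Gast. With the index covariate it was 0.04 for Slc6a4 and 0.20 for Fabp6. Without both libraries of mouse 12 it was 0.10 for Slc6a4, 0.74 for Slc10a2 and 0.50 for Fabp6. The cause was not tested. Genes with few counts, such as Gast, Hlf and Gm572, carry large errors at this depth.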
